A study of Mus musculus with 4 samples.

Results

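The genes of the classical axon guidance families were followed in Osr1+ cells of the mouse embryonic limb. They were picked out by a rule on gene symbols and comprise the ephrins and their Eph receptors, the semaphorins with the plexins and neuropilins, the Slits and Robos, and netrins with the receptors *Dcc*, *Neo1* and the Unc5 family. This rule found 68 of the 23284 gene symbols in the deposited count tables, of which 34 encode ligands and 34 encode receptors. Ephrins and most class 4 to 7 semaphorins act from the cell surface, whereas class 3 semaphorins, Slits and netrins are secreted. In the limb these molecules are known for steering motor and sensory axons, blood vessels and migrating cells, and connective tissue cells can carry both the cues and the receptors.

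Limbs of C57BL/6J embryos were dissociated at E13.5, GFP+ cells were collected by FACS, and their RNA was sequenced for 2 *Osr1* GCE/+ and 2 *Osr1* GCE/GCE embryos. GCE is an eGFP-IRES-CreERt2 cassette knocked into *Osr1*, so both groups carry the reporter and the recombinase, the GCE/+ cells keep 1 wild-type allele, and no wild-type embryo was in the comparison. *Osr1* encodes a zinc finger transcription factor of irregular connective tissue, and the comparison asks which transcripts differ in GFP+ cells homozygous for the knock-in. GFP was read from the same allele that differs in dose between the groups, so a shift in which cells enter the gate and a change within cells cannot be told apart.

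Each library held 52121596 to 61402140 counted fragments, and 3 counts amounted to 0.0490 to 0.0574 counts per 1000000 (CPM, scaled by the library size after TMM normalization). *Osr1* was at 81.9 and 79.1 CPM in GCE/+ replicates 1 and 2 and at 11.9 and 13.9 CPM in GCE/GCE replicates 1 and 2, and its log2 fold change was -2.64 (adjusted p = 7.17e-05, SE 0.11, edgeR). The limb fibroblast genes *Pdgfra*, *Col1a1* and others of a 10-gene list summed to 17698 to 22980 CPM in every library. The sums were far lower for the endothelial list (108 to 148 CPM), the macrophage list (155 to 355 CPM) and the neuronal list (126 to 153 CPM). None of these lists had a gene at 0. The cartilage list summed to 989 to 2260 CPM and the pericyte list to 520 to 572 CPM. Sums of this kind give transcript levels, not numbers of cells. *Xist*, expressed from the inactive X chromosome of females, had 1142 CPM in GCE/GCE replicate 1 and 0.572 to 2.63 CPM in the other 3 libraries. The labels give no sex, and of the 3 X-linked guidance genes (*Efnb1*, *Plxna3* and *Plxnb3*) none passed the test between genotypes.

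The libraries of GFP+ cells held transcripts of most of the guidance genes. Of the 68 genes, none was at 0 in all 4 libraries. Above 1 CPM in all 4 were 62 of them, beside 13104 of the 15645 genes tested. The summed level of the 68 genes was 5815 and 6355 CPM in GCE/+ and 6412 and 6420 CPM in GCE/GCE cells. Markers of other cell types were also present in these bulk libraries, so these levels cannot be assigned to 1 cell type. Levels of different genes were compared as CPM per kilobase of exon, averaged over the 2 GCE/+ samples. On this scale *Plxnb2*, a receptor for class 4 semaphorins, ranked 1 with 70.8 CPM per kb, followed by the semaphorin and VEGF co-receptor *Nrp1* with 60.3 and the netrin and RGM receptor *Neo1* with 49.4 CPM per kb. *Epha4*, an Eph receptor that binds ephrins of both classes, had 47.6 CPM per kb and *Efnb2*, the main ligand of EphB4, had 46.9 CPM per kb. The order of *Neo1*, *Epha4* and *Efnb2* was not the same in both replicates. By GCE/+ mean CPM not divided by exon length, 7 of the 10 highest genes were the same. On that scale *Plxnb2* again ranked 1, *Sema5a* ranked 2 and *Nrp1* ranked 9.

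**Figure D1:**
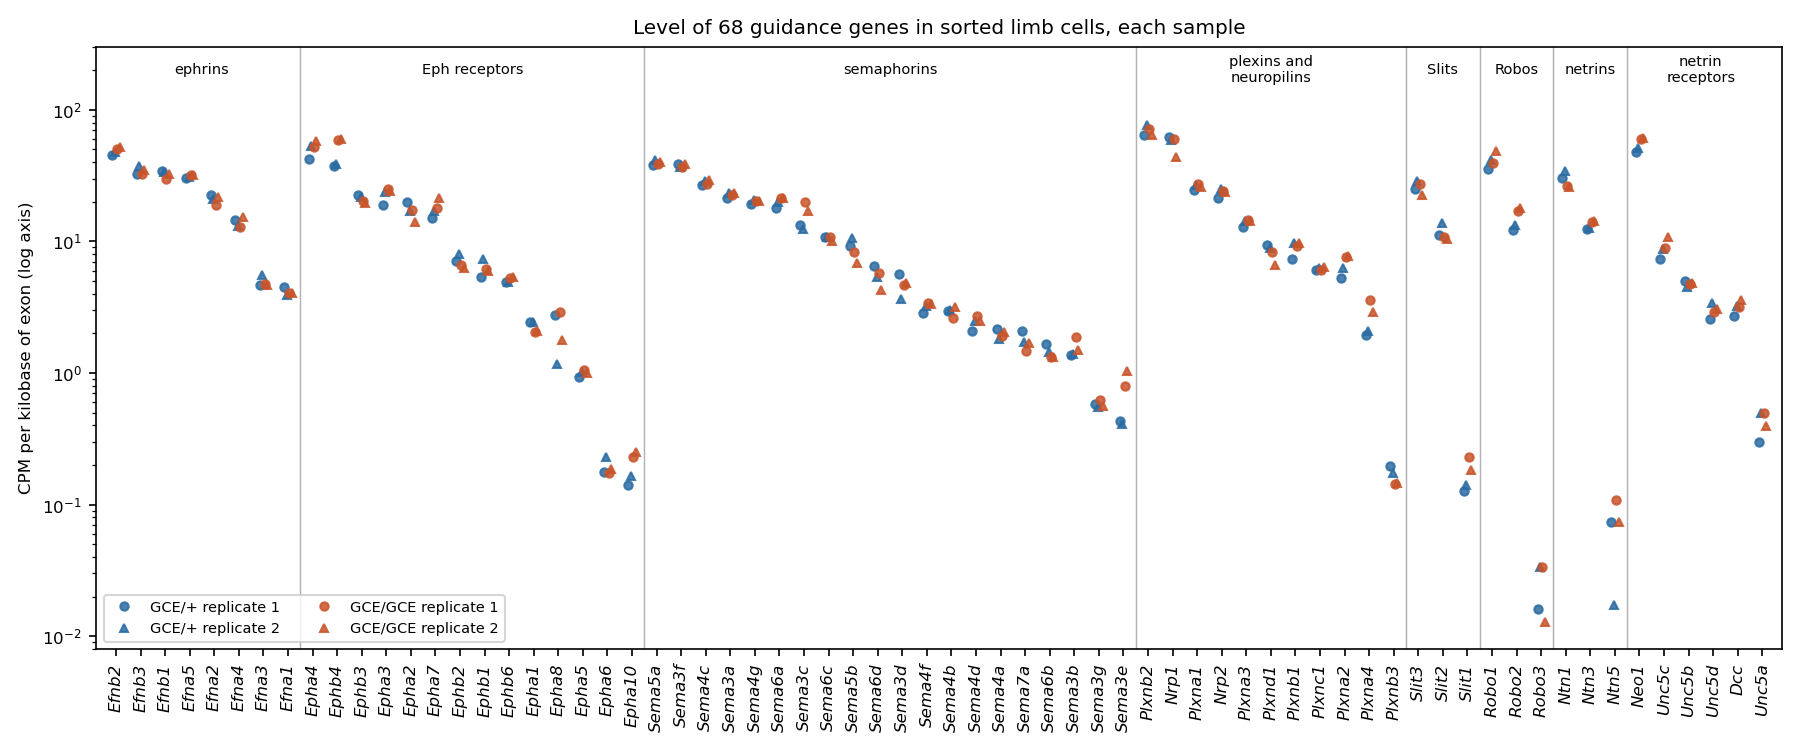
Level of each of the 68 guidance genes in the 4 samples (blue, GCE/+; orange, GCE/GCE; circle, replicate 1; triangle, replicate 2), in CPM per kilobase of exon on a log axis, grouped by role and ordered by the GCE/+ mean. The GCE/+ means span from 70.8 CPM per kb for *Plxnb2* to 0.0248 CPM per kb for *Robo3*.

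Levels differed widely within each role, and the lowest ephrin was at 4.24 CPM per kb. Among ephrins the B class led, with *Efnb2* at 46.9, *Efnb3* at 34.9 and *Efnb1* at 33.7 CPM per kb. Among Eph receptors *Epha4* was followed by *Ephb4* at 38.1 and *Ephb3* at 22.1 CPM per kb. Among semaphorins the transmembrane *Sema5a* (39.7 CPM per kb), the secreted *Sema3f* (37.9) and *Sema4c*, a ligand of plexin-B2 (27.9), were highest. *Plxna1*, which pairs with neuropilins to receive class 3 semaphorins, had 25.9 CPM per kb.

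The midline families were uneven. *Slit3* had 26.9 and *Slit2* 12.5 CPM per kb against 0.134 for *Slit1*, and *Robo1* had 38.3 and *Robo2* 12.7 CPM per kb against 0.0248 for *Robo3*. *Ntn1*, the founding secreted netrin, was at 32.5 and *Ntn3* at 12.5 CPM per kb, whereas *Ntn5* was near the detection limit with 0.164 and 0.0382 CPM in GCE/+ and 0.241 and 0.163 CPM in GCE/GCE cells and did not pass the filter on low counts. Of the repulsive netrin receptors, *Unc5c* had 8.08 and *Unc5b* 4.74 CPM per kb. Genes whose mean over the 4 libraries was below 1 CPM numbered 6, namely *Epha10*, *Epha6*, *Ntn5*, *Plxnb3*, *Robo3* and *Slit1*.

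Between genotypes, 5 of the 67 guidance genes tested were higher in GCE/GCE cells and 0 were lower (edgeR's quasi-likelihood test, adjusted by Benjamini-Hochberg over all 15645 genes, adjusted p under 0.1). This is 7.46% of the genes tested, beside a background of 1.78% of all genes called in either direction, 0.888% called higher and 0.895% called lower. The 5 were *Sema3e*, *Plxna4*, *Ephb4*, *Sema3c* and *Robo2*, 2 ligands and 3 receptors. The median log2 fold change over the family was 0.03, beside 0.00 over all genes tested. At an unadjusted p under 0.05, 15 of 67 differed (22.4%, beside 10.5% of all genes), of which 11 were higher (16.4%, beside 5.54% of all genes) and 4 were lower (5.97%, beside 4.92%). The values of both GCE/GCE samples lay above those of both GCE/+ samples for 19 genes (28.4%, beside 19.2% of all genes) and below them for 12 genes (17.9%, beside 19.1%). Lower calls appeared under other processing. DESeq2 called 7 higher and 1 lower (beside 1.77% and 1.69% of all genes, 3.45% in all). Offsets for a trend of each sample's levels on transcript length gave 4 higher and 3 lower (beside 0.978% and 1.08%, 2.06% in all). These offsets with a block for the replicate number gave 4 higher and 4 lower (beside 1.16% and 1.37%, 2.53% in all).

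**Figure D2:**
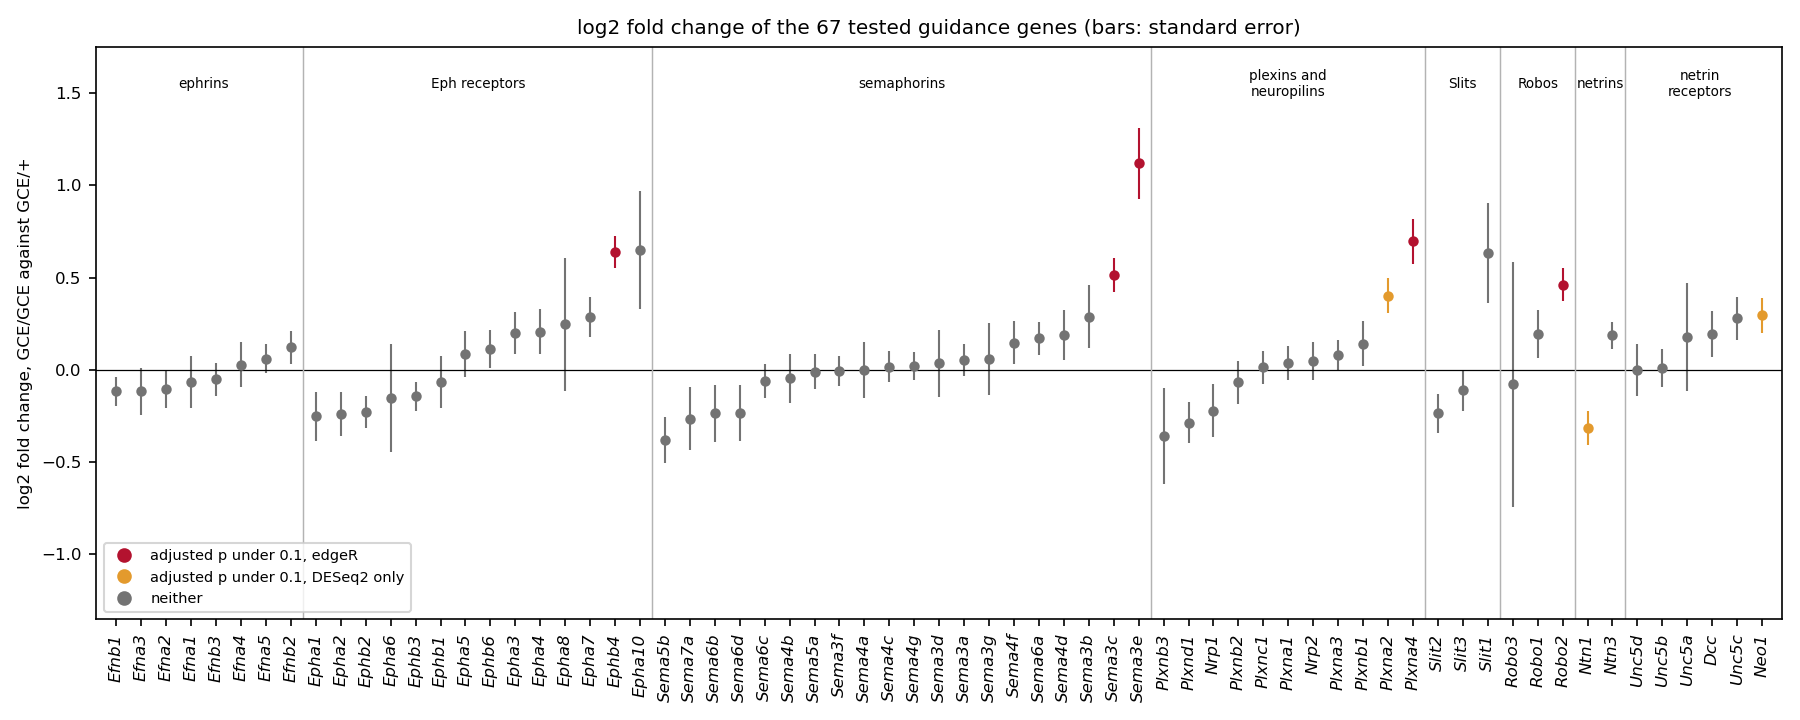
Log2 fold change, GCE/GCE against GCE/+, of the 67 guidance genes tested, ordered by role, with the standard error as a bar. The 5 genes past an adjusted p of 0.1 in edgeR lie between 0.46 and 1.12, and the ephrins between -0.12 and 0.12.

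*Sema3e*, a secreted semaphorin that binds plexin-D1 and is known for guiding blood vessels, rose most. It was at 2.94 and 2.83 CPM in GCE/+ replicates 1 and 2 and at 5.44 and 7.09 CPM in GCE/GCE replicates 1 and 2. The groups did not overlap, and per kilobase *Sema3e* was the lowest of the 20 semaphorins in both GCE/+ samples. The log2 fold change was 1.12 (adjusted p = 0.0456, SE 0.19, n = 2 against 2), or 2.17-fold, and the gene passed under all 11 alternatives. *Plxnd1*, its receptor, had 64.4 and 61.8 CPM in GCE/+ and 57.6 and 45.9 CPM in GCE/GCE cells, with both GCE/GCE values below, but a log2 fold change of -0.29 (SE 0.11) that did not pass (adjusted p = 0.398, edgeR). It was -0.13 without GCE/GCE replicate 2 and -0.46 without GCE/GCE replicate 1.

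*Sema3c*, another secreted class 3 semaphorin that signals through neuropilins and plexins, was at 73.8 and 68.7 CPM in GCE/+ and at 109.6 and 94.1 CPM in GCE/GCE cells. Both GCE/GCE samples exceeded both GCE/+ samples, by a log2 fold change of 0.51 (adjusted p = 0.0558, SE 0.09). Without GCE/GCE replicate 1 it was 0.39 and no longer passed. The other 5 class 3 semaphorins did not pass, with log2 fold changes between -0.01 for *Sema3f* and 0.29 for *Sema3b*. *Sema3e* and *Sema3c* both lie on chromosome 5 in GRCm38, at 14025276 to 14256689 and 17574281 to 17730268 on the plus strand. *Sema3a* and *Sema3d* lie in the same stretch, the start of *Sema3e* being 0.900 Mb beyond that of *Sema3a* and that of *Sema3c* 3.55 Mb further on, and had log2 fold changes of 0.05 and 0.04.

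Among the other 13 semaphorins none passed the test in edgeR or in DESeq2, and 1 of them, *Sema5b*, had an unadjusted p under 0.05. *Sema5b*, a transmembrane semaphorin, was at 42.6 and 49.4 CPM in GCE/+ and 38.8 and 32.0 CPM in GCE/GCE. The edgeR log2 fold change was -0.38 (adjusted p = 0.274, SE 0.12). Over the alternatives it was between -0.53 without GCE/GCE replicate 1 and -0.25 without GCE/GCE replicate 2. *Sema7a*, which is anchored to the membrane by a lipid, had 6.88 and 5.64 CPM in GCE/+ and 4.86 and 5.57 CPM in GCE/GCE cells. The closest values of the 2 groups for *Sema7a* thus nearly met. The most abundant semaphorin, *Sema5a*, had 410.3 and 448.6 CPM in GCE/+ and 421.3 and 431.3 CPM in GCE/GCE cells, so its groups overlapped.

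Of the 11 plexins and neuropilins, 1 passed the test. *Plxna4*, a receptor for class 6 semaphorins and, with neuropilins, for class 3 semaphorins, was at 25.1 and 26.6 CPM in GCE/+ and at 46.4 and 37.5 CPM in GCE/GCE. The log2 fold change of 0.70 (adjusted p = 0.0511, SE 0.12) is a 1.62-fold rise, and without GCE/+ replicate 1 it was 0.65 and did not pass. The gene lies on chromosome 6 at 32144268 to 32588192 on the minus strand. *Plxna2*, which also receives class 6 semaphorins, went from 58.5 and 69.5 CPM to 83.9 and 85.1 CPM, a log2 fold change of 0.40 (SE 0.09) that missed the threshold in edgeR (adjusted p = 0.112) and passed it in DESeq2 (adjusted p = 0.0356). It was 0.25 with offsets for transcript length (adjusted p = 0.130), 0.28 without GCE/+ replicate 1 and 0.53 without GCE/+ replicate 2. The remaining plexin-A genes, *Plxna1* and *Plxna3*, had log2 fold changes of 0.04 and 0.08. *Sema6a*, a membrane ligand of plexin-A2 and plexin-A4, had 127.4 and 142.8 CPM in GCE/+ and 151.3 and 152.8 CPM in GCE/GCE cells, with both GCE/GCE values above, and a log2 fold change of 0.17 (adjusted p = 0.614, edgeR).

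*Plxnb2* had 423.4 and 506.4 CPM in GCE/+ and 468.0 and 419.6 CPM in GCE/GCE cells, and its groups overlapped. The neuropilin *Nrp1* had 223.5 and 210.5 CPM in GCE/+ and 216.0 and 156.2 CPM in GCE/GCE cells. GCE/GCE replicate 2 alone was low, and *Nrp1* had a log2 fold change of -0.22 (adjusted p = 0.727, SE 0.14), or -0.48 without GCE/GCE replicate 1 and -0.01 without GCE/GCE replicate 2. In the same libraries the 12 macrophage markers summed to 349.9 and 354.6 CPM in GCE/+ and to 222.7 and 155.0 CPM in GCE/GCE cells, and 7 of the 12 fell while none of them rose (10 fell in DESeq2). Macrophages can express *Nrp1*, and the part of these markers in its values was not tested. In these bulk samples, fewer cells of a type and less RNA per cell cannot be told apart.

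**Figure D3:**
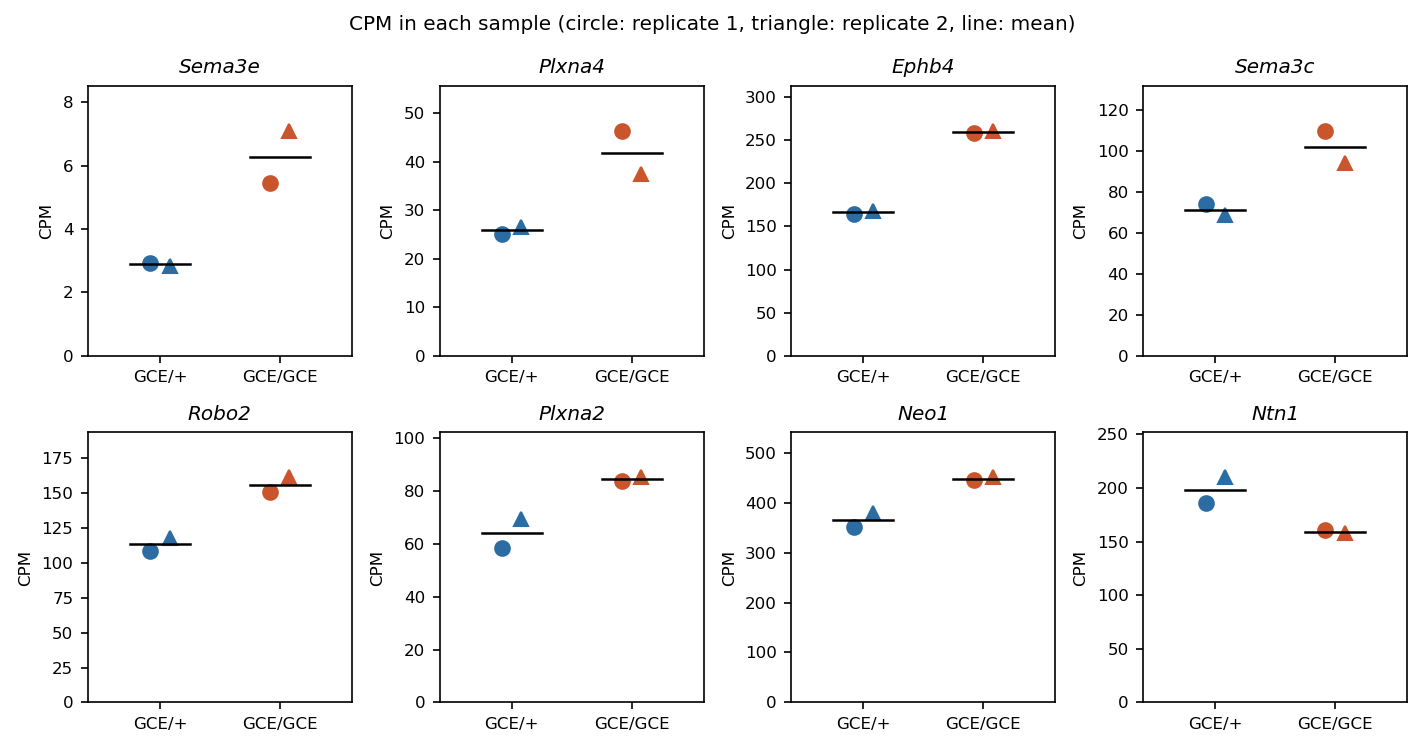
CPM of the 8 guidance genes past an adjusted p of 0.1 in edgeR or DESeq2, with 1 point per library (circle, replicate 1; triangle, replicate 2) and the group mean as a line. For *Sema3e*, *Plxna4*, *Ephb4*, *Sema3c* and *Robo2* both GCE/GCE points lie above both GCE/+ points.

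*Ephb4*, the receptor tyrosine kinase of ephrin-B2, known from venous endothelium, was the only one of 14 Eph receptors to pass in edgeR and in DESeq2. It was at 164.8 and 168.3 CPM in GCE/+ and at 258.4 and 260.7 CPM in GCE/GCE cells, with little spread inside either group. The log2 fold change was 0.64 (adjusted p = 0.0242, SE 0.09), a 1.56-fold rise that stayed between 0.62 and 0.66 and passed under all 11 alternatives. The 10 endothelial markers summed to 148.5 and 121.9 CPM in GCE/+ and to 124.0 and 108.1 CPM in GCE/GCE cells, so the sums of the 2 groups overlapped. Both GCE/GCE values lay below both GCE/+ values for 5 of them and above for 2 (*Erg* and *Tek*), and their median log2 fold change was -0.41. None of the 10 passed in edgeR, 5 were lower and 1 was higher at an unadjusted p under 0.05, and DESeq2 called 1 lower. Their part in the values of *Ephb4* and *Plxnd1* was not tested. *Efnb2*, the ligand, had 219.1 and 230.6 CPM in GCE/+ and 239.5 and 250.3 CPM in GCE/GCE. The edgeR log2 fold change was 0.12 (adjusted p = 0.771, SE 0.09).

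The other 13 Eph receptors had log2 fold changes from -0.25 for *Epha1* to 0.65 for *Epha10*, which was under 1 CPM in each library. *Epha1* had 8.31 and 8.28 CPM in GCE/+ and 6.91 and 7.02 CPM in GCE/GCE cells, with no overlap and an adjusted p of 0.615 in edgeR. On the opposite strand, 6.97% of its exon bases overlap *Zyx*, and whether the counting used strand is not given in the sources used here. *Epha4* had 269.0 and 333.4 CPM in GCE/+ and 329.8 and 365.1 CPM in GCE/GCE cells, so its groups overlapped, and *Ephb3* had 128.6 and 124.3 against 116.6 and 112.5 CPM. None of the 8 ephrins passed in edgeR or DESeq2, and none had an unadjusted p under 0.05. Their summed level was 647.0 and 668.6 CPM in GCE/+ and 648.6 and 684.8 CPM in GCE/GCE cells. *Efnb1* had 110.8 and 109.0 CPM in GCE/+ and 97.1 and 105.6 CPM in GCE/GCE cells, and *Efnb3* had 104.2 and 118.1 against 103.9 and 110.7 CPM.

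*Robo2*, a receptor for Slit proteins, was at 108.4 and 118.0 CPM in GCE/+ and at 150.6 and 161.1 CPM in GCE/GCE cells. Both GCE/GCE samples were higher, by a log2 fold change of 0.46 (adjusted p = 0.0626, SE 0.09). This call was the least stable of the 5. It was lost with offsets for transcript length (0.34, adjusted p = 0.104) and with these offsets and the replicate block (0.34, adjusted p = 0.115). It was also lost without GCE/+ replicate 1 (0.40) and without GCE/GCE replicate 2 (0.41). *Robo1* had 266.7 and 313.2 CPM in GCE/+ and 296.6 and 367.4 CPM in GCE/GCE cells, so its groups overlapped. *Robo3*, which modifies Slit responses of commissural axons, lay between 0.0653 and 0.172 CPM in all libraries.

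None of the 3 Slits passed in edgeR or DESeq2, and 1 of them, *Slit1*, had an unadjusted p under 0.05. *Slit2* was at 112.4 and 138.1 CPM in GCE/+ and 108.4 and 104.3 CPM in GCE/GCE cells, with both GCE/GCE values below. Its log2 fold change was -0.24 (adjusted p = 0.50, SE 0.11), or -0.37 with offsets for transcript length (adjusted p = 0.0610). It was -0.38 without GCE/+ replicate 1 and -0.08 without GCE/+ replicate 2. *Slit3* had 131.2 and 150.5 CPM in GCE/+ and 142.1 and 118.7 CPM in GCE/GCE cells and overlapped between the groups. The scarce *Slit1* had 0.739 and 0.822 CPM in GCE/+ and 1.34 and 1.08 CPM in GCE/GCE. The edgeR log2 fold change was 0.63 (adjusted p = 0.464, SE 0.27).

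The netrin system showed no gene past the threshold in edgeR. An unadjusted p under 0.05 was found for 4 of its 8 tested genes, beside 10.5% of all genes. Of these, *Ntn1* was lower, and *Ntn3*, *Neo1* and *Unc5c* were higher. *Ntn1* was at 186.2 and 209.7 CPM in GCE/+ and 160.3 and 157.7 CPM in GCE/GCE cells, so both GCE/GCE samples were lower. Its log2 fold change of -0.32 (SE 0.09) had an adjusted p of 0.210 in edgeR, 0.0842 in DESeq2 and 0.0634 with offsets for transcript length, and the value was -0.23 to -0.41 over the alternatives. *Ntn3* had 62.7 and 63.3 CPM in GCE/+ and 71.2 and 72.1 CPM in GCE/GCE cells. *Neo1* went from 350.8 and 378.6 CPM to 445.2 and 450.4 CPM, a log2 fold change of 0.30 (SE 0.09) with an adjusted p of 0.253 in edgeR and 0.0798 in DESeq2, and with 0.21 to 0.35 over the alternatives. *Unc5c* had 71.6 and 85.3 CPM in GCE/+ and 86.1 and 104.2 CPM in GCE/GCE cells, which narrowly did not overlap, and *Unc5b* had 29.2 and 26.5 against 27.9 and 28.1 CPM. The axonal netrin receptor *Dcc* had 27.8 and 33.4 CPM in GCE/+ and 32.8 and 37.2 CPM in GCE/GCE cells.

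**Figure D4:**
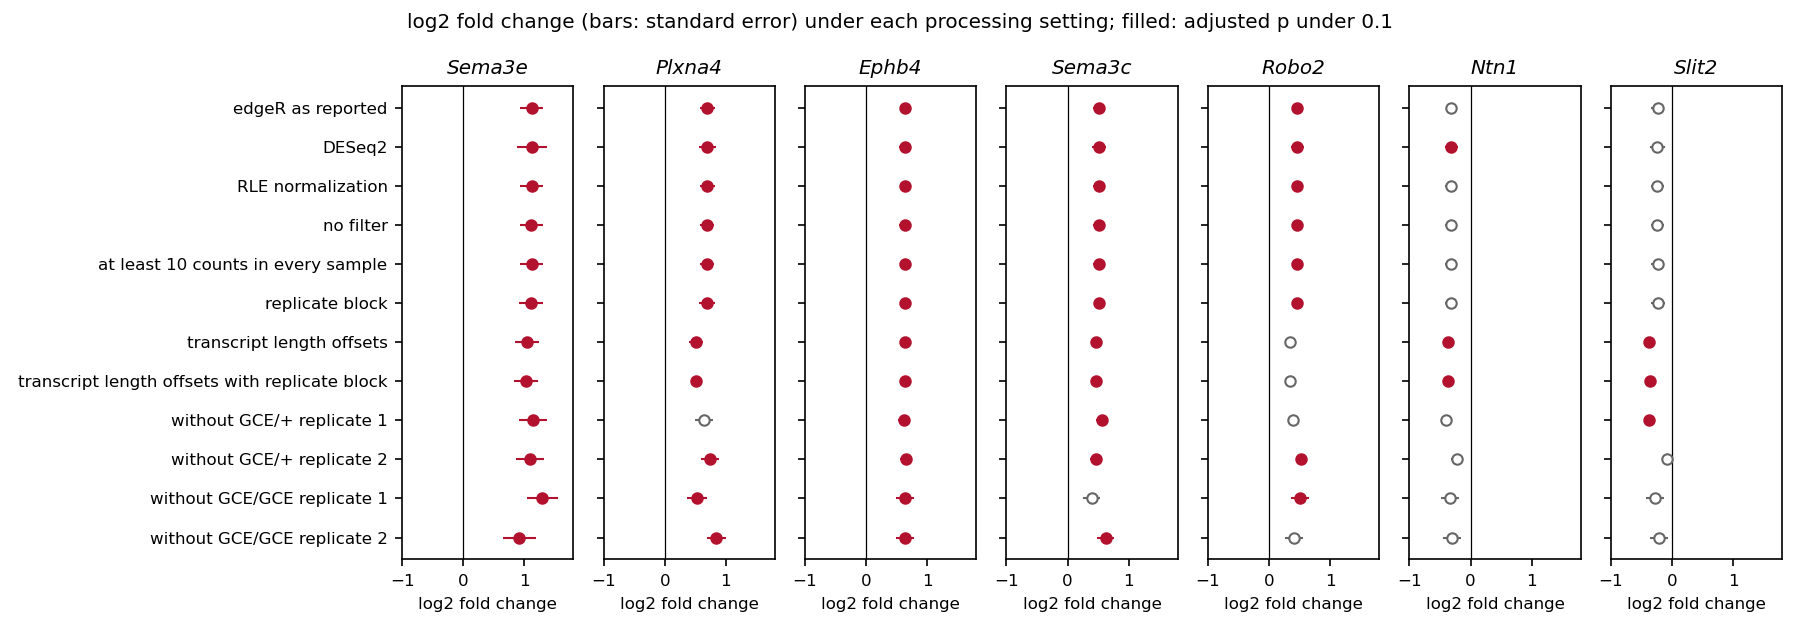
Log2 fold change with its standard error of the 5 genes that rose and of *Ntn1* and *Slit2*, for edgeR as reported and under each of 11 alternatives, with filled points past an adjusted p of 0.1. *Sema3e* and *Ephb4* were past an adjusted p of 0.1 under all 11 alternatives, and *Robo2* under 7 of 11.

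Cartilage genes rose in the same contrast. Of 15 cartilage markers, 6 passed the test and all 15 were higher in both GCE/GCE than in both GCE/+ samples, with sums of 989 and 1475 CPM in GCE/+ and 2100 and 2260 CPM in GCE/GCE cells and a median log2 fold change of 0.95. Within the GCE/+ group these markers differed, replicate 2 being above replicate 1 (*Col2a1* by 0.67 on the log2 scale). Over the same pair of samples the difference was -0.05 for *Sema3e*, 0.08 for *Plxna4*, 0.03 for *Ephb4*, -0.10 for *Sema3c* and 0.12 for *Robo2*. The part of the cartilage markers in the rise of the 5 genes was not tested. Myogenic markers (100 to 134 CPM summed, 0 of 10 tested called, 3 higher at an unadjusted p under 0.05, 1 higher in DESeq2) and neuronal markers (0 of 10 called, 1 higher and 3 lower at that p, 1 lower in DESeq2) had no gene past the threshold in edgeR. The same was true of Schwann cell (0 of 10, 0 at that p, 0 in DESeq2) and pericyte markers (0 of 7, 2 higher and 2 lower at that p, 1 lower in DESeq2). It was also true of epidermal (0 of 6, 1 higher and 1 lower at that p, 0 in DESeq2) and limb fibroblast markers (0 of 10, 2 lower at that p, 2 lower in DESeq2). Over all genes 10.5% had an unadjusted p under 0.05.

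Other genes of the same pathways were counted in 2 lists, against the 1.78% called among all genes and the 10.5% with an unadjusted p under 0.05. Of 24 tested ligands and co-receptors from a wider list, which holds heparan sulfate proteoglycans, RGM and FLRT proteins and cell adhesion molecules of the L1 and contactin families, 1 rose and 0 fell in edgeR, with 6 higher and 2 lower at an unadjusted p under 0.05. The gene that rose was *Sdc2*, which encodes a heparan sulfate proteoglycan of the cell surface, with 103.9 and 94.5 CPM in GCE/+ and 143.9 and 149.1 CPM in GCE/GCE cells (log2 fold change 0.56, SE 0.08, adjusted p = 0.0314). DESeq2 also called 1 of the 24 lower, *Sdc4*, which was at 42.0 and 37.0 CPM in GCE/+ and 29.6 and 28.5 CPM in GCE/GCE cells (adjusted p = 0.115 in edgeR and 0.0217 in DESeq2). Of 42 intracellular effectors of guidance receptors, such as collapsin response mediators, Mical and srGAP proteins, none passed in edgeR or in DESeq2, and 4 were higher and 2 lower at an unadjusted p under 0.05.

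The sequences directly upstream of the genes that rose are shown because these genes rose in the same contrast. In each, 250 bases before the transcription start are given 5′ to 3′ on the gene's strand, from RefSeq on GRCm38.p6, and capitals mark the GC box GGGCGG, searched on both strands and thus also read as CCGCCC. The windows are chr5:14025026-14025275 (plus strand) for *Sema3e*, chr5:137349859-137350108 (plus strand) for *Ephb4* and chr16:74411826-74412075 (minus strand) for *Robo2*, the last being 1 of 3 windows of that gene. A window is printed only where its transcription start is the gene start in the GENCODE annotation. None met this for *Sema3c* or *Plxna4*.
Sema3e: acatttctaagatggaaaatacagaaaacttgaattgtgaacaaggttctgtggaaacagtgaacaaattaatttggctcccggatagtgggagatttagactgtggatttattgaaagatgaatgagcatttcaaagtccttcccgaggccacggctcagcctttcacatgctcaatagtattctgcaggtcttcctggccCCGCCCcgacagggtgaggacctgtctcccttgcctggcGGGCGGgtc
Ephb4: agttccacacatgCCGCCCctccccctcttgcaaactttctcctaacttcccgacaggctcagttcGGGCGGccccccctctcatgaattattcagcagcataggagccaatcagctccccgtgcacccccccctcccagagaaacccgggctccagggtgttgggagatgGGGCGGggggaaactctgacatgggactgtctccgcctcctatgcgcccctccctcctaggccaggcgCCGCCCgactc
Robo2: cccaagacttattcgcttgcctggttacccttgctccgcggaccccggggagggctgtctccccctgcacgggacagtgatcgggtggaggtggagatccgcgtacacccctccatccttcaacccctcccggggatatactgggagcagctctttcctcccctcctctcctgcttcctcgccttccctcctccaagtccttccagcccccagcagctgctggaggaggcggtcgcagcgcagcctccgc

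The *Sema3e* window held 2 GC boxes and 48% G and C, that of *Ephb4* 4 GC boxes and 64% G and C, and that of *Robo2* none at 65.6% G and C. Windows were found for 58 of the 68 guidance genes. The GC box was in 71.6% of their 74 windows, beside 55.1% of the windows of tested genes and 32.7% of all windows. TATAAA, on both strands, was in 2.70% of the guidance windows, beside 7.04% of the windows of tested genes and 12.4% of all. The motif ACAGTAGC, associated with Osr proteins, was in 1 of the 74 windows (1.35%, beside 0.494% of windows of tested genes), that of *Epha5*, whose log2 fold change was 0.09. These matches describe letters in the window only.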

How the data were processed

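RNA of GFP+ cells was sequenced as paired-end reads (TruSeq RNA kit, Illumina). The authors mapped reads to mm9 with TopHat2 and a UCSC gene model and counted fragments with HTSeq (intersection-strict). What the authors deposited are raw counts per gene symbol, with no normalization. Tool versions and the strand setting are not given in the sources used here. The level given for 3 counts covers counting error only.

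Groups and replicate numbers came from the sample titles. Counts of all 4 samples were filtered with filterByExpr (15645 genes), normalized by TMM and tested with edgeR 4.0.16 in R 4.3.3 (quasi-likelihood, two-sided, Benjamini-Hochberg over all tested genes, adjusted p under 0.1, the threshold of the study). The standard error comes from the F statistic. An exact permutation test of 2 against 2 cannot go below p = 0.333. The spread covers 2 embryos per genotype. Exon lengths and positions came from GENCODE M21 on GRCm38 for 98.0% of symbols, matched by name, with none converted from mm9. Alternatives were DESeq2 1.42.0, RLE normalization, no filter, 10 counts in every sample, a replicate block, an adjusted p under 0.05, offsets for transcript length, these with the block, and leaving out each sample. With a sample left out, its group holds 1 embryo, so adjusted p values of those fits are not printed. The length offsets came from a natural spline (df 5) on exon length. It was fitted in each sample to the log2 CPM minus its mean over all 4 samples.

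Members and lists were chosen with earlier results of these data known. Values per sample are given for members past the threshold in edgeR or DESeq2, those with a mean of at least 1 CPM, a log2 fold change of at least 0.5 in size and no overlap, the 3 most abundant per kilobase of each role, and the 5 largest rises and falls among members with a mean of at least 1 CPM. *Sema3a*, *Sema3b*, *Sema3d*, *Sema6a*, *Dcc*, *Plxna3*, *Epha5*, *Epha6*, *Epha7*, *Epha10*, *Ephb2* and *Sdc4* fall outside this rule or its lists and were added after their values were seen, as was *Epha8* in the closing part.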

Additional observations from a re-analysis of the deposited data

How the results depend on the processing

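With 2 samples per genotype, 5 guidance genes passed. DESeq2 gave 8 (7 higher, 1 lower) and an adjusted p under 0.05 gave 2, both higher (*Ephb4*, *Sema3e*). The share of all genes with an adjusted p under 0.05 was not counted, so these 2 have no background beside them. Offsets for transcript length gave 7, with 4 higher and 3 lower (*Ephb2*, *Ntn1*, *Slit2*), and with the replicate block added 8, with 4 higher and 4 lower (*Plxnd1* joined). Log2 fold changes rose with exon length over all genes with a length (Spearman rho 0.257), and the median exon length was 5360 bases for the guidance genes and 3310 for all tested genes. The calls also moved with the sample left out, among the guidance genes and over all genes. Such a fit has 1 embryo in 1 of the groups, so the numbers of calls are not compared. Effect sizes moved too. With 1 sample left out, *Slit2* lay between -0.38 and -0.08, *Nrp1* between -0.48 and -0.01, and *Plxna2* between 0.28 and 0.53. The cause was not tested. Replicate numbers are shared only as numbers (the deviations of same-numbered samples correlated at -0.041 over 9755 genes). The replicate block alone gave the same 5 calls, *Osr1* at -2.64 and a median of 0.03 over the family. That median was -0.01 to 0.08 over all alternatives. Over 31 named members, 339 values were recomputed, of which 301 kept direction and side of the threshold, 6 lost a call and 13 gained one. The 19 that reversed were of members near 0 that passed nowhere: with length offsets, without and with the block, *Plxna1* was at -0.0839 and -0.0835, *Sema3f* at 0.0116 and 0.0112, and *Unc5b* at -0.0489 and -0.0437. Leaving out 1 sample moved *Plxna1* from -0.0345 to 0.104, *Sema3f* from -0.0437 to 0.0250, *Unc5b* from -0.0602 to 0.0753, *Efnb3* from -0.145 to 0.0424, *Plxnb2* from -0.197 to 0.0675, *Robo3* from -0.915 to 0.509, *Sema4c* from -0.0432 to 0.0718, *Sema5a* from -0.0799 to 0.0548 and *Slit3* from -0.254 to 0.0122. DESeq2 gave no adjusted p for *Robo3*.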

Other observations

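*Epha8* and *Sema3d*, picked after their values were seen, differed more between the GCE/+ embryos than between genotypes. Such differences were not counted over all genes. *Epha8*, an Eph receptor, had 13.0 and 5.53 CPM in GCE/+ replicates 1 and 2 and 13.7 and 8.46 CPM in GCE/GCE replicates 1 and 2, so replicate 1 was the higher of each pair. *Sema3d*, a secreted class 3 semaphorin, had 41.6 and 26.8 CPM in GCE/+ and 34.6 and 35.7 CPM in GCE/GCE cells, and the GCE/GCE values lay between those of GCE/+. For both genes the log2 fold change between genotypes was smaller than its standard error, 0.25 (SE 0.36) for *Epha8* and 0.04 (SE 0.18) for *Sema3d*.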
